A study of Mus musculus with 6 samples.

Results

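The cytosolic ribosomal protein genes were examined in MIN6 cells, an insulin-producing tumour line of mouse that stands in for beta cells of the islet, after knockdown of the homeobox transcription factor Hlxb9 (gene symbol Mnx1). Members were taken by gene symbol from the annotation of the array: symbols of the Rpl and Rps series, Rplp0 to Rplp2 and Rpsa, leaving out Rps6k kinases, pseudogenes and probe sets annotated to several genes. This gave 50 genes read by 106 probe sets, of 18193 genes and 45037 probe sets on the array. The rule matched names only and used no measured values. The family and the suffix comparison were nevertheless chosen with earlier results of these data known. By role, 22 genes encode large subunit proteins and 21 small subunit proteins. The other 7 are paralogues of such genes (Rpl3l, Rpl7l1, Rpl22l1, Rpl39l, Rps4l, Rps27l) and Rps19bp1, a nucleolar partner of Rps19 that the symbol rule also picks up. Rpl5, Rplp1 and Rps27a have no probe set of their own symbol alone and were not analysed here. A further 110 probe sets carry a ribosomal protein symbol together with other symbols and were left out by the rule.

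The control group was MIN6 cells given a scrambled negative control siRNA, and the other group was MIN6 cells given an siRNA against mouse Hlxb9, each with 3 arrays. Both groups were transfected in the same way, by nucleofection together with a lipid reagent, and total RNA was taken 72 hours later. The series describes several independent transfections, of which those with more than 75% knockdown on a western blot went on to arrays, so the samples were selected on Hlxb9 protein. MIN6 is a single tumour-derived line, all arrays come from it, and the labels also call the samples sorted without naming a gate. The labels do not say which transfection each array number belongs to, so p-values measure the spread between these arrays, part of which may be technical. In bulk RNA, fewer cells of a type and less RNA per cell cannot be told apart.

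The ribosome is built from a small subunit, which decodes mRNA, and a large subunit, which joins amino acids, and each ribosomal protein is normally present once per particle. Their mRNAs are among the most abundant of the cell, and most begin with a 5′ terminal oligopyrimidine tract, a run of C and U that starts with C and makes their translation depend on the TOR kinase through Larp1. Beta cells carry a heavy load of protein synthesis for insulin, and free ribosomal proteins such as Rpl11 can bind Mdm2 and so stabilise p53.

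The pyrimidine run near the start, a feature that the symbol rule did not use, is shown here because the family is best known for it, although not every annotated start carries one. Each line is a window of 25 bases from RefSeq (GRCm38.p6), from 10 bases before the annotated transcription start, 5′ to 3′ on the gene's strand, with a pyrimidine run that begins with C in capitals. They belong to Rps9 and Rps24, whose probe sets are followed one by one further on, Rps6, the S6 kinase substrate, Rpl35, Rpl38 and the stalk gene Rplp2. The other annotated start of Rps24 and that of the stalk gene Rplp0 follow as examples with no such run, and so no capitals. The first 6 lie at chr7:3704031-3704055 (plus strand), chr14:24490668-24490692 (plus), chr4:86857353-86857377 (minus), chr2:39005117-39005141 (minus), chr11:114668570-114668594 (plus) and chr7:141447641-141447665 (plus), in that order, and the last at chr14:24490743-24490767 (plus) and chr5:115559457-115559481 (plus).
Rps9: cttgtCTCTCTTTgtctcgggcctg
Rps24: gctggggtCCTTCCTTgcgcgttga
Rps6: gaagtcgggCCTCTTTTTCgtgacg
Rpl35: ccgCCCTTTCCTCTTTCTCTCgaac
Rpl38: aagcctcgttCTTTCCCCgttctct
Rplp2: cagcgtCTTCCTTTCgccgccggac
Rps24, other start: cgccgtagccatcatggtgagtctc
Rplp0: cgggtttcgaggaccgcctggttct

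Of the 50 genes, 44 matched the RefSeq promoter table. A C exactly at the annotated start, followed by at least 4 pyrimidines, was found in 8 of the 44 (18.2%), against 2.67% of 17491 protein-coding genes. Such a run anywhere in the 25-base window was found in 27 (61.4%), against 34.9% of protein-coding genes. Annotated starts can be off by several bases, so the first count depends on the annotation. The motif CCGGAAG, the core recognised by ETS family factors, stood on either strand within the 300 bases from 250 before to 50 after the start in 21 of the 44 genes (47.7%), against 12.9% of protein-coding genes. A match of letters is a description of these windows and not a measured binding site.

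Most members gave high signals. Values are the deposited log2 signals throughout, and unless said otherwise a gene with several probe sets is represented by the one whose mean over the 6 arrays is highest. The mean log2 signal of the 50 genes ran from 2.59 to 14.39 with a median of 13.08, and 45 of them lay above the median of all probe sets, 5.16, as did 62.4% of all genes. The 5 below it were Rpl37, Rps16, Rpl39l, Rpl3l and Rps4l, and of these Rpl3l is known from muscle and Rpl39l from testis. Rpl37 and Rps16 encode subunit proteins and are each read by 1 probe set here. How well those probe sets follow their RNA was not tested. Of the 266 probe sets on the array at or above the members' median level, 110 (41.4%) carry a ribosomal protein symbol, alone or with others. Beta cell identity was checked by 8 of the 10 listed markers found on the array, all of them above the array median, with Ins2 at 13.83, 13.86 and 13.87 on the control arrays. The lists for fibroblasts, immune, endothelial, acinar and ductal cells had mean log2 signals between 3.09 and 4.14 on every array. Gcg and Sst, hormones of other islet cells, were also high, for example Gcg at 12.89, 12.95 and 13.15 on the control arrays.

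Mnx1 itself read 7.82, 7.50 and 7.77 on control arrays 1, 2 and 3, and 7.53, 7.41 and 7.28 on Hlxb9 siRNA arrays 1, 2 and 3. The ranges overlap slightly, at control 2 and Hlxb9 siRNA 1. The group means were 7.70 ± 0.17 and 7.41 ± 0.13 (SD, n = 3 each), a log2 difference of -0.29 (SE 0.13) with a limma adjusted p of 0.659 and an exact two-sided permutation p of 0.2. Limma is a linear model that steadies each variance with those of all probe sets, and its p-values were adjusted over all of them. At the RNA level the siRNA target was thus not called 72 hours after transfection. Control 3 stood apart from the other 5 arrays: its Gapdh 3′ probe set exceeded the 5′ one by 2.13 on the log2 scale, against 0.65 to 0.78 elsewhere, a gap commonly used to judge RNA quality. Where control 3 decides a value, the value without it is given too.

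None of the 106 member probe sets passed the test, and most member differences were small in either direction. At an adjusted p of 0.05, limma called 0 of 106 member probe sets, and 0 of all 45037 (0% in each direction). The smallest adjusted p of a member was 0.653. A fit that weights arrays by their agreement with the others called 1.29% of all probe sets higher and 1.23% lower, and again 0 members. Its weights were 4.46 for control 2 and 2.91 for Hlxb9 siRNA 2, against 0.20 to 0.79 for the other arrays. The weighted fit thus rests largely on 1 array per group. The 110 ribosomal protein probe sets with several symbols, which the rule leaves out, had 0 calls, differences down to -0.78 and a median of 0.0048. Of these, 1 was higher and 9 lower at an unadjusted limma p under 0.05, against 3.86% and 3.76% of all probe sets, and the weighted fit called 0 of them higher and 4 lower. At an unadjusted limma p under 0.05, 0 member genes were higher and 1, Rps9, was lower, against 4.21% of all genes higher and 3.74% lower. With the array number as a block the member counts were 0 and 0, against 5.03% and 4.16% of all genes. The 3 Hlxb9 siRNA arrays lay entirely above the 3 controls for 8 member genes and entirely below them for 7, which is 16% and 14% of the 50, where 9.55% and 7.75% of all genes did so. Among the 266 bright probe sets, 110 of which carry a ribosomal protein symbol, the shares were 11.3% and 18.8%. Of the 7 lower genes, 6 are represented by an _x_at probe set, a kind described further on. By sign the family split into 27 higher and 23 lower, and the median log2 difference was 0.011, beside 0.002 for all genes. After centring each array on its median the split was 17 higher and 33 lower with a median of -0.041, where the median of all genes was -0.050. Leaving out control 3 gave 23 higher and 27 lower with a median of -0.006, so the sign of the median depends on these choices.

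The spread between arrays was small enough to bound most differences in signal. Many members lie near the top of the signal scale, where the highest probe set mean is 14.41. How signal follows RNA amount there was not tested. The 95% limma interval of the difference lay within 1.5-fold either way for 48 of the 50 genes (96%), against 77.4% of all genes and 99.2% of the 266 bright probe sets. The exceptions were Rps14 and Rps19. Without control 3 all 50 genes lay within it, against 84.3% of all genes and 99.6% of the bright probe sets. Of the 266 bright probe sets, 110 carry a ribosomal protein symbol, so this background is partly the family itself. The median absolute log2 difference of the members was 0.056, against 0.120 for all genes and 0.063 for the 266 bright probe sets. Over the member genes the median SD among the Hlxb9 siRNA arrays was 0.032 and among the controls 0.080, beside 0.031 and 0.075 for the bright probe sets. Control 3 was the lowest of the 6 arrays for 23 of the 50 genes (46%), against 25.6% of all probe sets and 44.0% of the 266 bright ones.

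**Figure D1:**
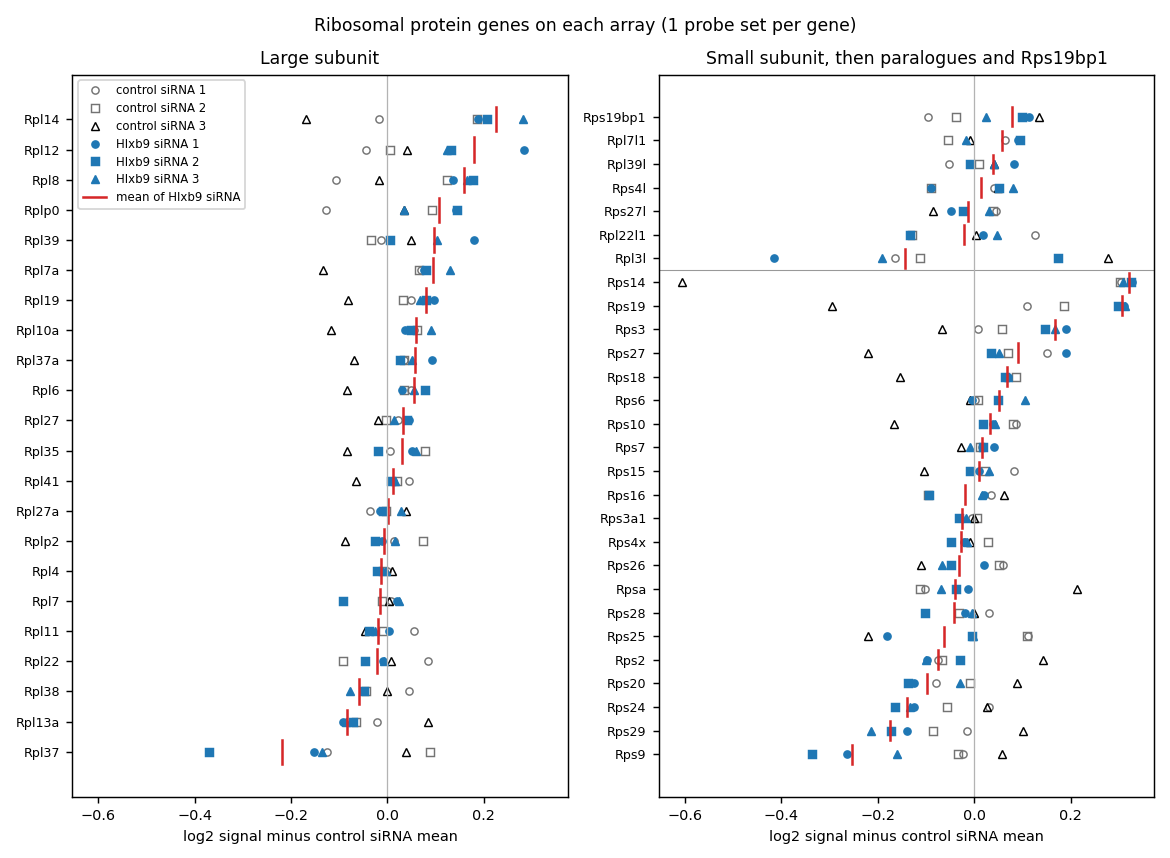
Log2 signal of each member gene on each array minus its control siRNA mean (x axis, log2 units), with large subunit genes at left and small subunit genes, then paralogues and Rps19bp1, at right. Open symbols are the 3 control arrays, filled symbols the 3 Hlxb9 siRNA arrays and the red bar their mean. Most bars lie within 0.1 of 0 (38 of 50 genes), and the open triangle of control 3 lies far to the left for Rps14 and Rps19.

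Among large subunit genes, 14 of 22 were higher and 8 lower after Hlxb9 siRNA, with a median log2 difference of 0.032, and none passed the test. Without control 3 the median was 0.007. The P stalk, the flexible arm that recruits the elongation factors, was represented by Rplp0, its scaffold, and Rplp2, one of its acidic proteins. Rplp0 read 12.51, 12.73 and 12.67 in controls and 12.78, 12.78 and 12.67 after Hlxb9 siRNA, a difference of 0.11 (SE 0.11, adjusted p = 0.803 by limma). Its groups overlap, since control 2 lies above Hlxb9 siRNA 3. Rplp2 read 14.11, 14.17 and 14.01 in controls and 14.09, 14.07 and 14.11 after Hlxb9 siRNA, with a difference of -0.0077 (SE 0.098). Control 3 is the lowest of its 6 arrays, and without it the difference was -0.052.

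Rpl14, Rpl12 and Rpl8 had the smallest p-values among large subunit genes with a higher value. Rpl14, a surface protein of the large subunit, read 9.51, 9.71 and 9.36 in controls against 9.71, 9.73 and 9.81. The Hlxb9 siRNA arrays lie above all controls, but control 2 is almost level with the lowest of them. The difference was 0.23 (SE 0.12, adjusted p = 0.677 by limma), and 0.14 without control 3. Rpl12, which sits at the base of the stalk, read 7.38, 7.43 and 7.47 against 7.71, 7.56 and 7.55. Its groups do not overlap, the difference was 0.18 (SE 0.10, adjusted p = 0.686), and it was 0.20 without control 3. Rpl8, which lies close to the peptidyl transferase centre, read 12.39, 12.62 and 12.48 against 12.63, 12.67 and 12.66, a difference of 0.16 (SE 0.10, adjusted p = 0.714). For each of these genes the exact permutation p is 0.1, which is the smallest that 3 against 3 arrays allow.

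Rpl37, Rpl13a and Rpl38 had the smallest p-values in the lower direction, all read by _x_at probe sets. Rpl37 read 4.78, 5.00 and 4.95 in controls against 4.76, 4.54 and 4.77, which is below the array median. Its difference was -0.22 (SE 0.12, adjusted p = 0.677 by limma). Rpl13a, which also takes part in interferon-regulated translational silencing, read 14.11, 14.06 and 14.21 against 14.04, 14.06 and 14.04, a difference of -0.083 (SE 0.097, adjusted p = 0.831), and -0.041 without control 3. Its other probe sets had differences of 0.019 and -0.051 (_a_at) and -0.047 (_x_at). Without control 3 these were 0.041, 0.082 and 0.012, all in the higher direction. Rpl38, known from the Tail short mouse mutant for its part in Hox mRNA translation, read 13.95, 13.86 and 13.90 against 13.85, 13.85 and 13.82, a difference of -0.058 (SE 0.093, adjusted p = 0.881). In Rpl13a and Rpl38 the groups just miss each other, by less than the SD of the controls.

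Rpl11, the Mdm2-binding protein, read 13.73, 13.67 and 13.63 against 13.68, 13.64 and 13.65, with a difference of -0.020 and a 95% interval of -0.24 to 0.20. Rpl22 read 13.40, 13.22 and 13.32 against 13.31, 13.27 and 13.31, with a difference of -0.021 (interval -0.25 to 0.21). Both genes overlap fully between groups. Rpl22l1, the paralogue that Rpl22 is known to repress in mice, also stood at a difference of -0.022 (SE 0.11).

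Among small subunit genes, 9 of 21 were higher and 12 lower, with a median log2 difference of -0.026, which was -0.026 without control 3 as well and -0.079 with arrays centred. Rpsa, the laminin receptor precursor that is also a small subunit protein, read 12.56, 12.55 and 12.88 in controls and 12.65, 12.63 and 12.59 after Hlxb9 siRNA. Control 3 is the highest of the 6 arrays here, and the difference of -0.040 (SE 0.12) turns to 0.068 without it. Rps6, the substrate of the S6 kinases, read 9.96, 9.97 and 9.95 against 9.95, 10.01 and 10.06, a difference of 0.051 (SE 0.094, interval -0.17 to 0.27).

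Rps19 and Rps14, whose human counterparts are tied to Diamond-Blackfan anaemia and to a form of myelodysplastic syndrome, had the largest positive differences of the family. Rps19 read 12.67, 12.74 and 12.26 in controls against 12.87, 12.85 and 12.87, a difference of 0.31 (SE 0.14, adjusted p = 0.664 by limma). Rps14 read 12.69, 12.69 and 11.78 against 12.71, 12.71 and 12.70, a difference of 0.32 (SE 0.24, adjusted p = 0.744). In both genes the groups do not overlap, but control 3 lies far below the other 5 arrays. Without control 3 the difference was 0.16 for Rps19 and 0.017 for Rps14. The other probe set of Rps14 had a difference of 0.077, and -0.11 without control 3. Rps3, which lines the mRNA entry site, read 12.99, 13.04 and 12.92 against 13.18, 13.13 and 13.15. Its difference was 0.17 (SE 0.096, adjusted p = 0.690), and 0.14 without control 3. Its other probe sets, both plain _at, did not share that sign, with differences of -0.053 and -0.036.

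In the lower direction the smallest p-values belonged to Rps9, Rps29 and Rps24. Rps9, a core protein near the mRNA entry channel, read 13.09, 13.08 and 13.18 in controls against 12.85, 12.78 and 12.96. All Hlxb9 siRNA arrays lie below all controls, with a difference of -0.25 (SE 0.10), or -16.1% on the linear scale. The unadjusted limma p was 0.037 and the adjusted p 0.653, and with the array number as a block the unadjusted limma p was 0.054. The exact permutation p was 0.1. Rps29, a small zinc-binding protein of the subunit's head, read 13.96, 13.89 and 14.07 against 13.84, 13.80 and 13.76, a difference of -0.18 (SE 0.10, adjusted p = 0.690 by limma), and -0.12 without control 3. Rps24, also a Diamond-Blackfan gene in humans, read 13.55, 13.47 and 13.55 against 13.40, 13.36 and 13.39, a difference of -0.14 (SE 0.094, adjusted p = 0.722).

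Of the paralogues and Rps19bp1, 0 of 7 lay wholly above or below the controls, where 9.55% of all genes lay above and 7.75% below. With 7 genes this count is not read as a trait of the paralogues. Rps27l, a p53-induced paralogue of Rps27, read 12.74, 12.73 and 12.61 against 12.64, 12.67 and 12.72, a difference of -0.014 (SE 0.098). Rpl7l1 had a difference of 0.057 (SE 0.098), while its other probe sets, both plain _at, had 0.23 and -0.052. Without control 3 those other probe sets stood at 0.078 and 0.023. Rps19bp1, also described as a regulator of Sirt1, had 0.079 (SE 0.11), and 0.15 without control 3. Rpl3l, Rpl39l and Rps4l lay below the array median, with differences of -0.14, 0.039 and 0.013. The value for Rpl3l was -0.006 without control 3.

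The members were next compared by probe set suffix. The suffix of a probe set states how specific its probes are: plain _at probes are designed to be unique, _a_at probes match several transcripts of a gene, and _x_at sets contain probes that can also bind other sequences. Ribosomal protein genes have many processed pseudogenes in the mouse genome, and 40 of the 106 member probe sets, from 20 genes, are _x_at, beside 35 plain _at, 28 _a_at and 3 _s_at. Plain _at members had a median log2 difference of 0.057 (25 of 35 higher), beside 0.006 for all plain _at probe sets. For those above the array median the values were 0.081 (24 members) and 0.060. The _x_at members had a median of -0.052 (25 of 40 lower), beside -0.073 for all _x_at probe sets. The _a_at members, at 0.014, lay between, beside 0.025 for all _a_at probe sets, and at -0.011 without control 3. Above the array median the values were 0.017 for the _a_at members and 0.057 for all _a_at probe sets. Over all 6 arrays the sign of each member median was thus that of its suffix over the whole array. With arrays centred the medians were 0.0045 for plain _at and -0.10 for _x_at members. Over all probe sets of these suffixes they were then -0.046 and -0.125, so the plain _at signs differed.

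Of the _x_at members, 14 of 40 (from 11 genes) had all Hlxb9 siRNA arrays below all controls and 2 had them all above, against 19.1% and 5.57% of all _x_at probe sets. Of the 66 other member probe sets, 1 was wholly below and 8 wholly above, against 6.61% and 8.43% of all probe sets with other suffixes. The background rises with brightness: among _x_at probe sets above the array median 23.9% were wholly below, and among the 266 bright probe sets of any suffix 18.8%. On the single arrays the median of the _x_at members relative to their control mean was 0.031, 0.0035 and -0.024 in controls and -0.031, -0.063 and -0.023 after Hlxb9 siRNA, so these medians overlap between the groups at control 3. Over all _x_at probe sets control 3 was the highest array in 48.2%, whereas for the members it was the highest in 10 of 40 and the lowest in 15 of 40. Without control 3 the median of the _x_at members was -0.056 with 34 of 40 lower, beside -0.032 for all _x_at probe sets, and that of the plain _at members 0.023 with 24 of 35 higher.

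**Figure D2:**
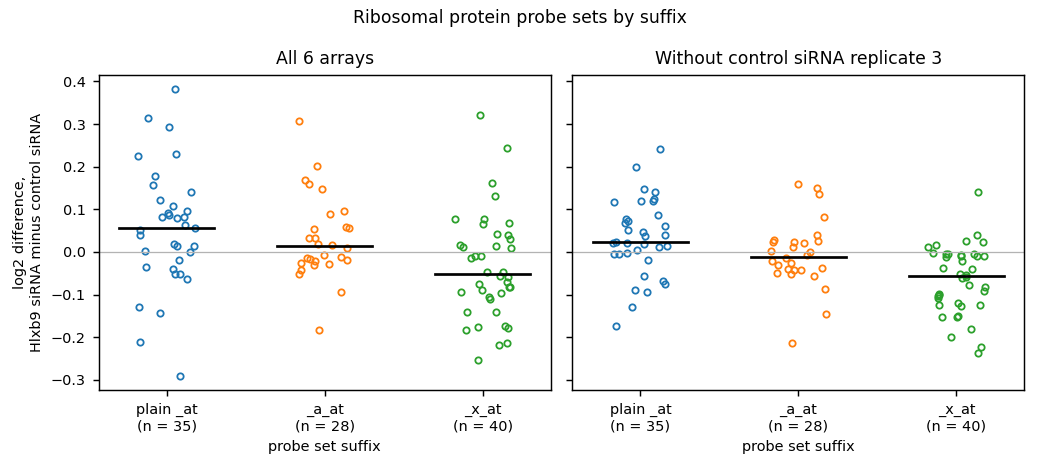
Log2 difference, Hlxb9 siRNA minus control (y axis), of each member probe set by suffix (x axis), over all 6 arrays at left and without control 3 at right, with the median as a bar; the 3 _s_at probe sets are not drawn. The _x_at points centre below 0 in both panels (-0.052 and -0.056) and the plain _at points above it (0.057 and 0.023).

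Within genes the same order held. In the 8 genes read by both kinds, the mean difference of the _x_at probe sets was lower than that of the plain _at probe sets in 7, with a median gap of -0.19. The gap ranged from -0.57 in Rps9 to 0.01 in Rpl41, and its median was -0.11 without control 3. Leaving out Hlxb9 siRNA 1 also gave -0.11, with 5 of 8 genes lower, and leaving out Hlxb9 siRNA 3 gave -0.31, with 8 of 8. In 6 of the 8 genes a plain _at probe set lay above the array median. Only in Rpl27 were the levels alike, with mean log2 signals of 12.93 for plain _at and 13.08 for _x_at. In the other genes plain _at levels ran from 3.96 (Rps18) to 7.80 (Rpl41), and _x_at levels from 10.15 (Rps18) to 13.90 (Rpl35). Suffix and signal level cannot be told apart in those genes. In 14 genes with an _x_at and any other probe set above the array median, the _x_at difference was the lower one in 12, with a median gap of -0.047.

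Rps9 shows the disagreement most plainly. Its _x_at probe set gave the values above, with a difference of -0.25. Its _s_at probe set read 12.99, 13.12 and 12.06 in controls against 13.22, 13.18 and 13.22, a difference of 0.48 (SE 0.26, adjusted p = 0.679 by limma), or 0.15 without control 3. Here too the groups do not overlap, but in the opposite direction. Its plain _at probe set read 5.73, 5.26 and 5.27 against 5.84, 5.81 and 5.54, a difference of 0.32 (SE 0.16), or 0.24 without control 3. One gene thus had wholly separate groups in both directions, and the data give no single direction for Rps9.

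Rps24 is read by 4 _x_at probe sets, and in all 4 the Hlxb9 siRNA arrays lie below every control, with differences of -0.21, -0.18, -0.14 and -0.14. Probe sets of a gene share transcript and RNA sample, so these are not 4 independent readings. The first of them read 13.21, 13.07 and 13.07 in controls against 12.93, 12.88 and 12.90, with an adjusted p of 0.664 by limma. Its plain _at probe sets had differences of -0.21 and 0.12 with overlapping groups, and of 0.020 and 0.072 without control 3. Rps20, a protein of the small subunit's head, had _x_at differences of -0.17 and -0.097, while its plain _at and _a_at probe sets, both below the array median, stood at 0.064 and -0.18.

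Rpl35, which lies at the mouth of the exit tunnel, had a gap of -0.33, and -0.079 without control 3. Its plain _at probe set read 6.53, 6.43 and 5.59 in controls and 6.86, 6.81 and 6.02 after Hlxb9 siRNA. The groups overlap, since array 3 is low in both, but within each array number the Hlxb9 siRNA value is higher, by 0.34, 0.38 and 0.43. The difference was 0.38 (SE 0.30), and 0.087 without control 3, with an adjusted limma p of 0.760, and 0.496 with the array number as a block. Its 4 _x_at probe sets had differences between 0.030 and 0.078. Rpl27 had 0.16 for plain _at and -0.095 for _x_at, a gap of -0.25, and of -0.12 without control 3. Rps18 had a gap of -0.17, with both plain _at probe sets below the array median.

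**Figure D3:**
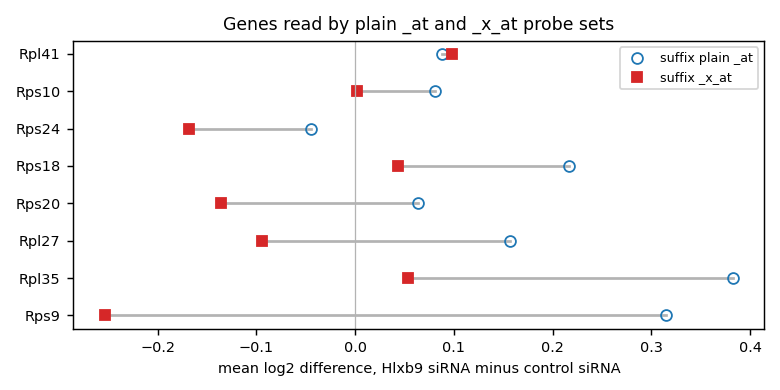
Mean log2 difference, Hlxb9 siRNA minus control (x axis), of the plain _at probe sets (circles) and the _x_at probe sets (squares) of the 8 genes read by both (y axis). The square lies left of the circle in 7 of 8 genes, by the most in Rps9 (-0.57).

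**Figure D4:**
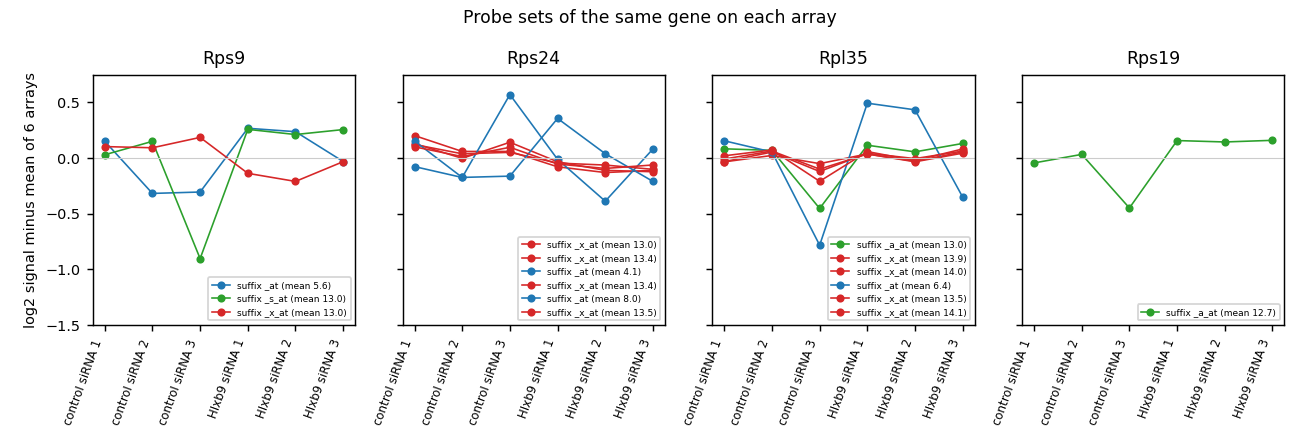
Log2 signal of each probe set minus its mean over the 6 arrays (y axis) on each array (x axis) for Rps9, Rps24, Rpl35 and Rps19, one line per probe set, coloured by suffix. Control 3 lies far below the other arrays in the _s_at probe set of Rps9 and in the _a_at probe sets of Rpl35 and Rps19, while the _x_at lines of Rps9 and Rps24 are lower on all 3 Hlxb9 siRNA arrays.

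Across the family, 24 genes have several probe sets and in 13 of them the differences go in opposite directions. Among all 9010 genes with several probe sets this was so for 59.3%. The low readings of control 3 were most frequent in _a_at members, where it was the lowest array for 18 of the 27 above the array median (66.7%), against 38.5% of all such _a_at probe sets. Control 3 is also the array with the wide Gapdh gap given above, and the part of that gap in these readings was not tested.

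Genes that act with the ribosomal proteins were taken from lists written for this comparison, and none of their members passed the test. Fau, whose product is processed into the small subunit protein Rps30, had a difference of 0.11, and 0.0073 without control 3. Of 20 other mRNAs with a terminal pyrimidine tract, 19 were on the array, 10 higher and 9 lower, with a median of 0.008. In this list Npm1, a nucleolar chaperone, had 0.22 (SE 0.11) and Pabpc1, the poly(A)-binding protein, -0.22 (SE 0.11). The 42 ribosome assembly genes divided evenly, 21 higher and 21 lower, around a median of -0.012. Without control 3 that median was 0.034, beside 0.027 for all genes. The 60S assembly factor Wdr12 had 0.21 (SE 0.10), and Dkc1, the pseudouridine synthase of small nucleolar particles, -0.34 (SE 0.14), or -0.21 without control 3. The medians of the pyrimidine-tract and assembly lists stand beside 0.002 for all genes. All their measured genes lie above the array median, and all genes above it had a median of 0.036.

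Of the TOR and S6 kinase genes, 19 of 23 were measured, 7 higher and 12 lower with a median of -0.077. Eef2k, the kinase that slows elongation by phosphorylating Eef2, read 9.52, 9.44 and 9.46 in controls against 8.92, 9.07 and 8.99. Its groups do not overlap, with a difference of -0.48 (SE 0.099) and an adjusted limma p of 0.645. Rps6kb2, an S6 kinase, read 8.53, 8.73 and 7.60 against 9.16, 8.95 and 8.66, a difference of 0.63 (SE 0.29), which was 0.29 without control 3. Of the Mdm2 and p53 genes, 5 of 7 were measured, 2 higher and 3 lower with a median of -0.016. Mdm4 had 0.21 (SE 0.11) and Ccng1, a p53 target, -0.11 (SE 0.10).

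The mitochondrial ribosomal proteins, encoded in the nucleus for the separate ribosome of mitochondria, are the closest comparison. All 76 genes lay above the array median, and 64 were higher and 12 lower after Hlxb9 siRNA, with a median of 0.131. It was 0.127 without control 3 and 0.079 with arrays centred. The Hlxb9 siRNA arrays lay wholly above the controls in 31 of 76 and wholly below in 2, against 9.55% and 7.75% of all genes. Of the 11345 genes above the array median, 1485 lay wholly above and 826 wholly below. The median difference of those genes was 0.036. Mrps25 had 0.35 (SE 0.11) and Mrps23 -0.50 (SE 0.13), each with an adjusted limma p of 0.645. The cytosolic family, at 27 higher, 23 lower and a median of 0.011, stands beside it, and the difference between the families was not tested.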

How the data were processed

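Total RNA (6 ug) of MIN6 cells was labelled with biotin and hybridised to an Affymetrix mouse array, 3 arrays per group, per the labels. The deposited values are log2 signals. The submitters' processing notes name RMA and Partek, with no version or setting. Array medians of the deposited values run from 5.08 to 5.20, so the arrays do not share exactly one distribution, and small shifts of a whole family depend on the scaling. Arrays carry no read depth, and 6 arrays limit the precision.

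The maker's 64 control probe sets were set aside. Hlxb9 siRNA was compared with control by limma 3.58.1 (R 4.3.3, statmod 1.5.0), lmFit and eBayes, without covariates, two-sided, with Benjamini-Hochberg adjustment over 45037 probe sets. SE is limma's moderated standard error. A gene was read by its brightest probe set on average, and single values also had an exact permutation test. All 106 member probe sets matched RefSeq GRCm38.p6 by Entrez identifier, and 0 symbols changed. The fit was tested on simulated data.

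The members, the suffix comparison and the lists were chosen with earlier results of these data known. Named genes were the stalk genes, Rpsa, all paralogues and Rps19bp1, the 3 smallest p-values per subunit and direction, the 6 largest suffix gaps, Rps6, Rps3, Rps14, Rps19, Rpl11, Rpl13a and Rpl22, and the smallest p per direction of each related list.

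Arrays carry numbers 1 to 3 in both groups. Deviations from group means correlated between equal numbers at r = 0.155, 0.165 and 0.202, all over 0.1. Equal numbers were therefore treated as pairs in an alternative fit, on the values and not the labels. The main fit and the permutation test left the arrays unpaired. Alternatives were the number as a block, array weights, centring, repeated quantile normalization, an offset of 32, dim probe sets left out, trend and robust prior, gene means, plain _at only, an adjusted p of 0.10 and leaving out each array.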

Additional observations from a re-analysis of the deposited data

How the results depend on the processing

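The count of 0 member probe sets called held under every alternative run, including array weights, which called 579 probe sets higher and 553 lower over the whole array. Of 736 alternative values, the comparison-level results stayed within their spread or within 1.5 times in 191 and moved in 36. With the replicate block the count of member genes at an unadjusted p under 0.05 went from 1 lower to 0. Each array number occurs in both groups, so the block leaves every difference, median and overlap count unchanged by design. Only standard errors and p-values could move, and some of the 191 values were thus fixed in advance. The trend and robust prior likewise leaves the differences unchanged. Centring arrays on their median gave 17 member genes higher, 2 with groups wholly above the controls, and medians of -0.041 (all members), -0.021 (large subunit), -0.079 (small subunit), 0.0045 (plain _at) and -0.10 (_x_at). Plain _at probe sets alone gave medians of 0.079 (all), 0.10 (large) and 0.057 (small), with 3 genes wholly above, 0 wholly below and 0 lower at p under 0.05. Repeated quantile normalization gave an _x_at median of -0.026 and 4 genes wholly below. Array weights gave a large subunit median of 0.0061 and 2 lower genes at p under 0.05. Of all 18193 genes, 2420 were higher and 2050 lower at that threshold in the weighted fit. Gene means gave 1 higher and 0 lower, an offset of 32 gave 3 and 3, and the trend gave 2 and 3. Leaving out 1 array gave a large subunit median of 0.0065 to 0.051, lowest without control 3, and a plain _at median of 0.017 to 0.088, lowest without Hlxb9 siRNA 1 and highest without Hlxb9 siRNA 3. It gave 0 to 2 genes higher at p under 0.05, with 2 only without control 2, and 0 to 1 lower, with 1 only without Hlxb9 siRNA 3. The number wholly below ran from 7 to 12, with 11 without control 2 and 12 without control 3. Groups separate more readily when an array is left out. Most of these counts have no share of all genes beside them, so they are not read as results about the members.

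The sign turned for 17 of the named genes, among them Rps9, Rps24, Rps3 and Rpl3l, whose differences are large for the family. With array weights they were 0.035 for Rpl22, 0.019 for Rpl22l1, -0.056 for Rpl35, 0.11 for Rpl3l, -0.0094 for Rps18 and 0.060 for Rpsa. Centring gave -0.019 for Rpl27, -0.022 for Rpl35, -0.013 for Rpl39l, -0.039 for Rps4l and -0.0013 for Rps6. Repeated quantile normalization gave 0.029 for Rpl11 and 0.013 for Rplp2. Gene means gave 0.0056 for Rpl22 and 0.18 for Rps9. Plain _at alone gave 0.0007 for Rpl22, 0.064 for Rps20, 0.12 for Rps24, -0.036 for Rps3 and 0.32 for Rps9. Leaving out each array gave -0.043 to 0.0080 for Rpl11, -0.067 to 0.021 for Rpl22, -0.087 to 0.041 for Rpl22l1, -0.012 to 0.069 for Rpl35, -0.052 to 0.029 for Rplp2, -0.0093 to 0.11 for Rps18, -0.056 to 0.0092 for Rps27l, -0.032 to 0.065 for Rps4l and -0.095 to 0.068 for Rpsa. The cause of these moves was not tested. Signals below the array median and groups of 3 arrays limit what can be read from single members.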
